A study of Mus musculus with 10 samples.

Results

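The genes described here encode the enzymes and transporters that set the direction of glucose flux in hepatocytes: the glycolytic enzymes Pklr, Pfkl and Pfkfb1, the gluconeogenic enzymes G6pc, Pck1 and Fbp1, the plasma membrane glucose carrier Slc2a2 and the glucose 6-phosphate carrier Slc37a4. They were chosen by gene symbol. Of these 8 genes, 7 had a probe set in the table used here, with 13 probe sets among the 25958 that were tested, and Pfkfb1 was not analysed here. A probe set is a group of short array probes summarised as 1 value, usually for the transcripts of 1 gene. The arrays came from the livers of 10 mice at 28 days of age, fasted for 5 hours before they were killed. The 5 mutants carried loxP-flanked Dicer alleles on both chromosomes (DicerloxP/loxP) together with an Afp-Cre transgene, in which the Afp promoter drives Cre recombinase, and the other 5 were labelled control with no genotype given. Dicer is the ribonuclease that makes mature microRNAs. All animals were of a mixed strain. Afp is expressed in fetal hepatoblasts, so recombination by this transgene can reach the lineages that derive from them, and cells of other lineages in the liver keep their Dicer alleles. The labels give no sex, litter or batch, so p-values here reflect only how far these 10 livers vary.

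Liver both burns and makes glucose. In the fed state glucose enters hepatocytes through SLC2A2, is phosphorylated, and passes through phosphofructokinase (PFKL in liver) and pyruvate kinase (PKLR) to pyruvate. In fasting the flux turns round: pyruvate carboxylase and PCK1 bypass the pyruvate kinase step, FBP1 bypasses phosphofructokinase, and SLC37A4 carries glucose 6-phosphate into the endoplasmic reticulum, where G6PC releases free glucose. Insulin and glucose raise transcription of Pklr, while glucagon and glucocorticoids raise that of Pck1 and G6pc.

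Pklr has separate starts in red cell precursors and in hepatocytes, of which the downstream one is used in liver. The upstream sequences of both are shown because Pklr is the gene that passed the test, and that of Pck1 because it had the smallest p of Pck1, G6pc and Fbp1. All are from RefSeq on GRCm38.p6, on the plus strand, 250 bases ending at the base before a start: chr3:89135892-89136141, chr3:89136373-89136622 and chr2:173152823-173153072. Capitals mark motif matches.
Pklr upstream start: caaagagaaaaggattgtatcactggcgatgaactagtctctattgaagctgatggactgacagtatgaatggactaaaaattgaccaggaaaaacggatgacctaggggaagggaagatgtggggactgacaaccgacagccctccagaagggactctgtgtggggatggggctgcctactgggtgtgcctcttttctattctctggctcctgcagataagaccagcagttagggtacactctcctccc
Pklr downstream start: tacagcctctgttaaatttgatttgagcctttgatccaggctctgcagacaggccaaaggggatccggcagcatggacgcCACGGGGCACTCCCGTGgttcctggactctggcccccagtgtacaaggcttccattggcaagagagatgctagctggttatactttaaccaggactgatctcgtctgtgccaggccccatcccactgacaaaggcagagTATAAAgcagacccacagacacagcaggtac
Pck1 start: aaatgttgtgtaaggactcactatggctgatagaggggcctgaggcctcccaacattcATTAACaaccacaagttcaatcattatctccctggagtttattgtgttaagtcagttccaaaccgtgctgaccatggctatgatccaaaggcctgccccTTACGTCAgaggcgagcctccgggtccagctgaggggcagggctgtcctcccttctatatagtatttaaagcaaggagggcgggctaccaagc

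In the Pklr sequence of the downstream start, the long run in capitals holds CACGGG and, 5 bases on, its reverse complement CCCGTG, between 170 and 154 bases before the start. Carbohydrate response elements, to which the glucose-sensing factor MLXIPL (ChREBP) binds, have such a layout. This pattern was searched for after the sequence had been seen. It was found in 1 of 32851 promoter windows of 300 bases, a share of 0.00304%, and that window is the one of Pklr itself. The share is that of these exact letters, and the same layout with other letters was not searched for. The shorter capitals are TATAAA, the TATA box, between 31 and 26 bases before the start, which 13.6% of all windows hold. In Pck1 the capitals are TTACGTCA, a form of the cAMP response element, between 93 and 86 bases before the start, held by 0.499% of windows, and ATTAAC, the reverse complement of the HNF1 core GTTAAT, held on either strand by 7.1%. The G6pc window, not shown, held the HNF1 core, the TATA box and, on its minus strand, CAAAACA of the insulin response element (6.28% of windows). Among 14 windows of the 8 genes, searched on both strands, none held TGACGTCA of the cAMP response element (1.79% of all windows), CACGTG of the E box (7.15%), GTAAACA of forkhead factors (3.65%) or CAAAGTCCA of HNF4 (0.475%). These letters describe the windows only. Which start of Pklr a probe set reports was not analysed here.

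Dicer1 itself was lower in every mutant on both probe sets, at 5.42 to 5.94 against 7.99 to 8.10 in controls on 1 and at 6.97 to 7.20 against 7.91 to 8.18 on the other, in log2 units of signal. It fell by 2.31 (SE 0.10, adjusted p = 4.1e-05) and by 1.03 (SE 0.07, adjusted p = 0.000678). Array medians lay between 6.40 and 6.67. On component 1 of a principal component analysis, which held 46.8% of the variance, controls lay between -45.8 and -25.6, 4 mutants between 33.4 and 62.2, and mutant replicate 5 at -15.4, apart from the other mutants. The hepatocyte markers were at the top of the scale, with a mean log2 level of 15.15 to 15.31 in controls and 15.09 to 15.24 in mutants. Of 9 of them, 0 changed by limma, while for 2 the unadjusted p was under 0.05. Of 13 Kupffer cell and macrophage markers 5 rose and of 11 stellate and matrix markers 6 rose, with 0 that fell in either list. Over all genes, 7.29% rose. All 13 and all 11 differences were positive, and the unadjusted p by limma was under 0.05 for 11 and for 9. Mean levels of the Kupffer cell and stellate lists ran from 8.68 to 9.62 and from 9.82 to 10.11 in controls. In mutants they ran from 9.61 to 10.31 and from 10.27 to 10.80. Of 10 endothelial markers 1 fell (mean level 8.92 to 9.35 in controls and 8.80 to 9.0 in mutants), where 9.56% of all genes fell. All 10 differences were negative, with an unadjusted p by limma under 0.05 for 4. Of 8 cholangiocyte markers 2 rose (3.82 to 4.19 and 4.60 to 5.41), with 6 positive differences and 3 at an unadjusted p under 0.05. These signals were dim, and 3 of the 8 markers had a mean below 3.60, the 25th percentile of all values. Of 6 lymphocyte markers 0 changed (4.75 to 5.11 and 4.77 to 5.32), with 2 at an unadjusted p under 0.05 and 2 with a mean below that percentile. Skeletal muscle, adipocyte and exocrine pancreas lists had only 1, 1 and 2 measured markers, of which 0 changed. The part of other cell types in the results on glucose genes was not tested, and in whole liver fewer cells of a type and less RNA per cell cannot be told apart.

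Pklr, which encodes pyruvate kinase, was the only gene of the set that was called. The arrays measure RNA, and enzyme protein, activity and glucose flux were not analysed here. Pklr fell in mutant liver on all 3 of its probe sets, with differences of -1.67 to -1.07 on the log2 scale, or 0.315 to 0.476 of the control signal on the linear scale. None of the 10 probe sets of the other 6 genes passed the test in either direction. Over the series, 13.2% of the probe sets passed it, 7.39% as lower, against 3 of 13 here, all lower and all of 1 gene. The median difference was -0.12 over the 13 probe sets and -0.01 over all that were tested.

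On the brightest Pklr probe set, control replicates 1 to 5 stood at 10.57, 10.40, 10.26, 10.19 and 9.57 log2 units. Mutant replicates 1 to 5 stood at 9.12, 8.76, 9.39, 8.28 and 9.17. The groups did not overlap, and 0.18 separated the lowest control, replicate 5, from the highest mutant, replicate 3. The means were 10.20 ± 0.38 (SD, n = 5) and 8.94 ± 0.43 (SD, n = 5), so that Pklr fell by 1.26 (SE 0.24, 95% interval -1.80 to -0.72, adjusted p = 0.0149 by limma), a signal 2.39-fold lower. The exact two-sided permutation test gave p = 0.00794, the smallest that 5 arrays against 5 allow, for this and both other Pklr probe sets.

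The second Pklr probe set read 10.21, 10.34, 10.13, 10.11 and 9.67 in the controls and 9.31, 8.82, 9.27, 8.29 and 9.42 in the mutants. Mutant replicate 4 was again the lowest mutant and control replicate 5 the lowest control. Here Pklr fell by 1.07 (SE 0.22, 95% interval -1.57 to -0.57, adjusted p = 0.0186). The dimmest of the 3 read 8.64, 8.51, 8.54, 8.17 and 7.58 in controls and 6.96, 6.01, 7.30, 5.52 and 7.32 in mutants. It fell by 1.67 (SE 0.38, 95% interval -2.53 to -0.80, adjusted p = 0.0255), with mutant replicates 2 and 4 more than 1 unit below the highest mutants and groups that did not overlap. Deviations of the arrays from their group means correlated between these probe sets at r of 0.92 to 0.96 over the 10 arrays, which they share. Leaving out any 1 array kept the calls of the first 2 probe sets, with differences of -1.41 to -1.09 and -1.17 to -0.89. For the dimmest the adjusted p rose to between 0.0531 and 0.0611 when control replicate 1, 2, 3 or 4 or mutant replicate 2 was left out. Without mutant replicate 5, which stood apart above, the differences were -1.31, -1.17 and -1.84.

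**Figure D1:**
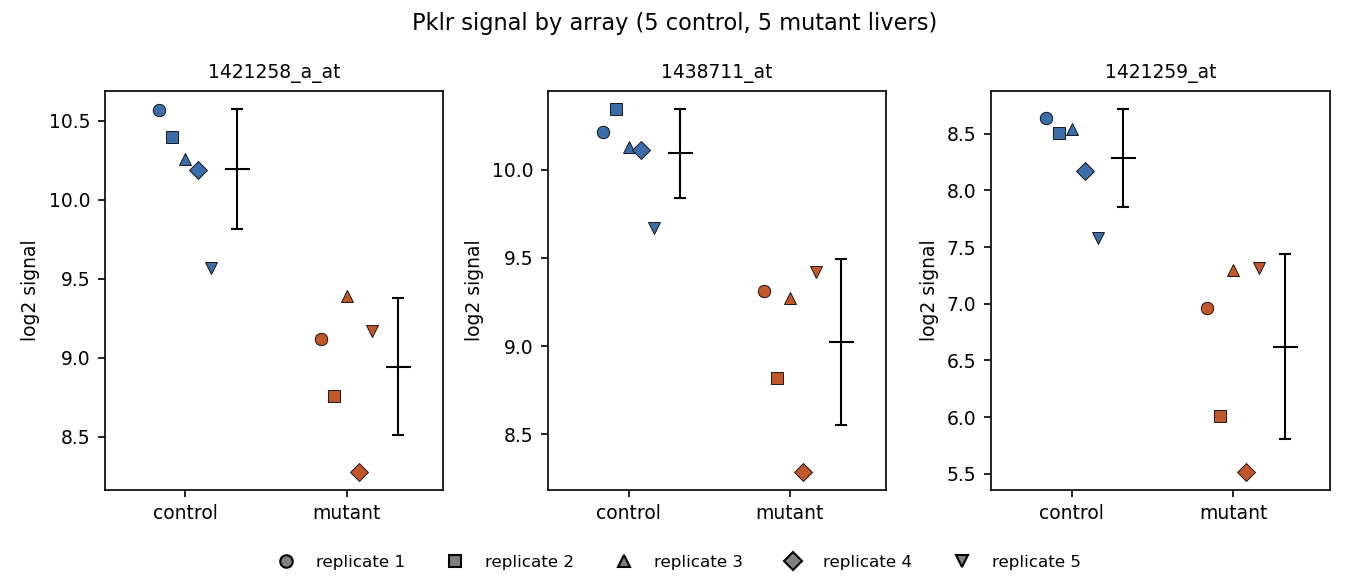
Log2 signal (vertical axes) of the 3 Pklr probe sets in 5 control (blue) and 5 mutant (orange) livers, 1 point for each array with the symbol of its replicate number, and the mean with the SD of each group in black. In each panel every mutant lies below every control, with mutant replicate 4 lowest and control replicate 5 the lowest control.

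Pklr is also expressed in red cell precursors, so their markers are set beside it. Of 5 measured erythroid markers, 0 changed, with 0 at an unadjusted p under 0.05, and their mean level ran from 5.85 to 6.57 in controls and from 5.90 to 6.15 in mutants. Alas2, the first enzyme of heme synthesis in red cells, was named after its values had been seen, and read 10.76, 9.65, 10.22, 10.86 and 10.69 in controls and 10.29, 8.92, 10.58, 9.83 and 9.88 in mutants, which differ by -0.53 (SE 0.33, adjusted p = 0.343). The groups overlapped. Slc4a1 differed by -0.44 (SE 0.26, adjusted p = 0.321), Tfrc by -0.08 and Hbb-b2 by -0.01, the latter at 4.39 to 4.51 on all arrays. Hba-a2 differed by 0.3, at dim signals of 2.09 to 2.47 in controls and 2.22 to 3.15 in mutants. These markers were also named after their values had been seen. With so few markers, 1 of them dim, the count of 0 does not show that red cell content was stable. The part of red cell precursors in the Pklr signal was not tested.

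The difference of Pklr was also set against that of each other gene, array by array, with exact permutation tests on the brightest probe sets. In all 6 pairs the Pklr difference was the lower one: less that of the other gene it was -0.99 for Slc37a4, -1.11 for Pfkl, -1.14 for Slc2a2, -1.27 for Fbp1, -1.47 for G6pc and -1.71 for Pck1. The exact permutation p was 0.0317 for Pfkl and 0.00794, the smallest possible, for each of the others, or 0.0317 and 0.00952 adjusted over the 6 pairs. This comparison was added after the values had been seen, with Pklr as the reference because it was the gene called. All 6 pairs share the Pklr values, and the adjustment does not cover the choice of Pklr. The p-values are therefore no further support for its fall.

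Pfkl, the liver subunit of the phosphofructokinase that commits glucose to glycolysis, did not pass the test. On its brightest probe set, controls read 8.81, 8.60, 8.79, 8.91 and 9.25 and mutants 8.71, 8.66, 8.93, 8.85 and 8.46. The groups overlapped between 8.60 and 8.93, and the difference was -0.15 (SE 0.13, 95% interval -0.44 to 0.14, adjusted p = 0.512). A dimmer probe set ran from 6.88 to 7.53 in controls and from 6.66 to 7.15 in mutants, a difference of -0.27 (adjusted p = 0.206). The remaining one, at 2.22 to 2.36 on all arrays, lay below the 25th percentile of all values, 3.60.

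Pck1, which makes phosphoenolpyruvate from oxaloacetate, did not pass the test on any of its 3 probe sets. Its brightest probe set read 15.25, 14.40, 15.05, 15.24 and 15.10 in controls and 15.29, 15.66, 15.46, 15.58 and 15.33 in mutants. Every mutant stood above every control, by as little as 0.04. The control mean was 15.01 ± 0.35 (SD, n = 5) and the mutant mean 15.46 ± 0.16 (SD, n = 5), which differ by 0.46 (SE 0.16, 95% interval 0.10 to 0.82, unadjusted p = 0.0187, adjusted p = 0.0933 by limma), and the exact permutation p was 0.00794. Probe sets with groups that do not overlap made up 10.3% of all probe sets, against 5 of 13 here, of which 3 are those of Pklr and the others belong to Pck1 and Slc37a4. Control replicate 2 was the low control, and without it the difference was 0.31 (adjusted p = 0.0683). These signals are near the top of the scale, which ends at 16.7, and fold changes there may be understated.

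The second Pck1 probe set ran from 12.09 to 13.61 in controls and from 13.31 to 14.03 in mutants, with control replicate 2 again lowest. Its groups overlapped, and the difference was 0.62 (SE 0.28, adjusted p = 0.178). The third read 3.0 to 3.41 on 8 arrays, 4.07 on control replicate 2 and 4.38 on mutant replicate 5, with a mean of 3.35 in each group, below the 25th percentile of all values.

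G6pc, the catalytic subunit of glucose 6-phosphatase, varied more between animals than between groups. Controls read 13.10, 11.34, 13.12, 13.27 and 12.68 and mutants 12.66, 12.82, 13.00, 13.59 and 12.51. Control replicate 2 was lowest by more than 1 unit, as it was lowest for Pck1, and mutant replicate 4, the lowest array for Pklr, was highest. The difference was 0.21 (SE 0.37, 95% interval -0.63 to 1.05, adjusted p = 0.791), and it was -0.13 without control replicate 2. This interval is wide enough to hold a change in either direction. Fbp1, the fructose bisphosphatase, was level across the animals, at 14.66, 14.71, 14.47, 14.54 and 14.45 in controls and 14.65, 14.60, 14.66, 14.56 and 14.44 in mutants. Its difference was 0.02 (SE 0.07, 95% interval -0.13 to 0.16, adjusted p = 0.946).

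The transporters differed little. Slc2a2 (GLUT2), the carrier for glucose in both directions across the hepatocyte membrane, read 13.08, 13.07, 12.86, 12.99 and 12.77 in controls and 13.04, 12.93, 12.69, 12.65 and 12.85 in mutants. The groups overlapped, and the difference was -0.12 (SE 0.09, 95% interval -0.33 to 0.09, adjusted p = 0.456). Slc37a4 read 12.81, 12.35, 12.47, 12.46 and 12.35 in controls and 12.14, 12.24, 12.28, 12.28 and 12.18 in mutants. All mutants lay below all controls by at least 0.07. The difference was -0.27 (SE 0.09, 95% interval -0.46 to -0.07, unadjusted p = 0.0125, adjusted p = 0.0724), with an exact permutation p of 0.00794, and it was -0.19 without control replicate 1, the highest array.

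**Figure D2:**
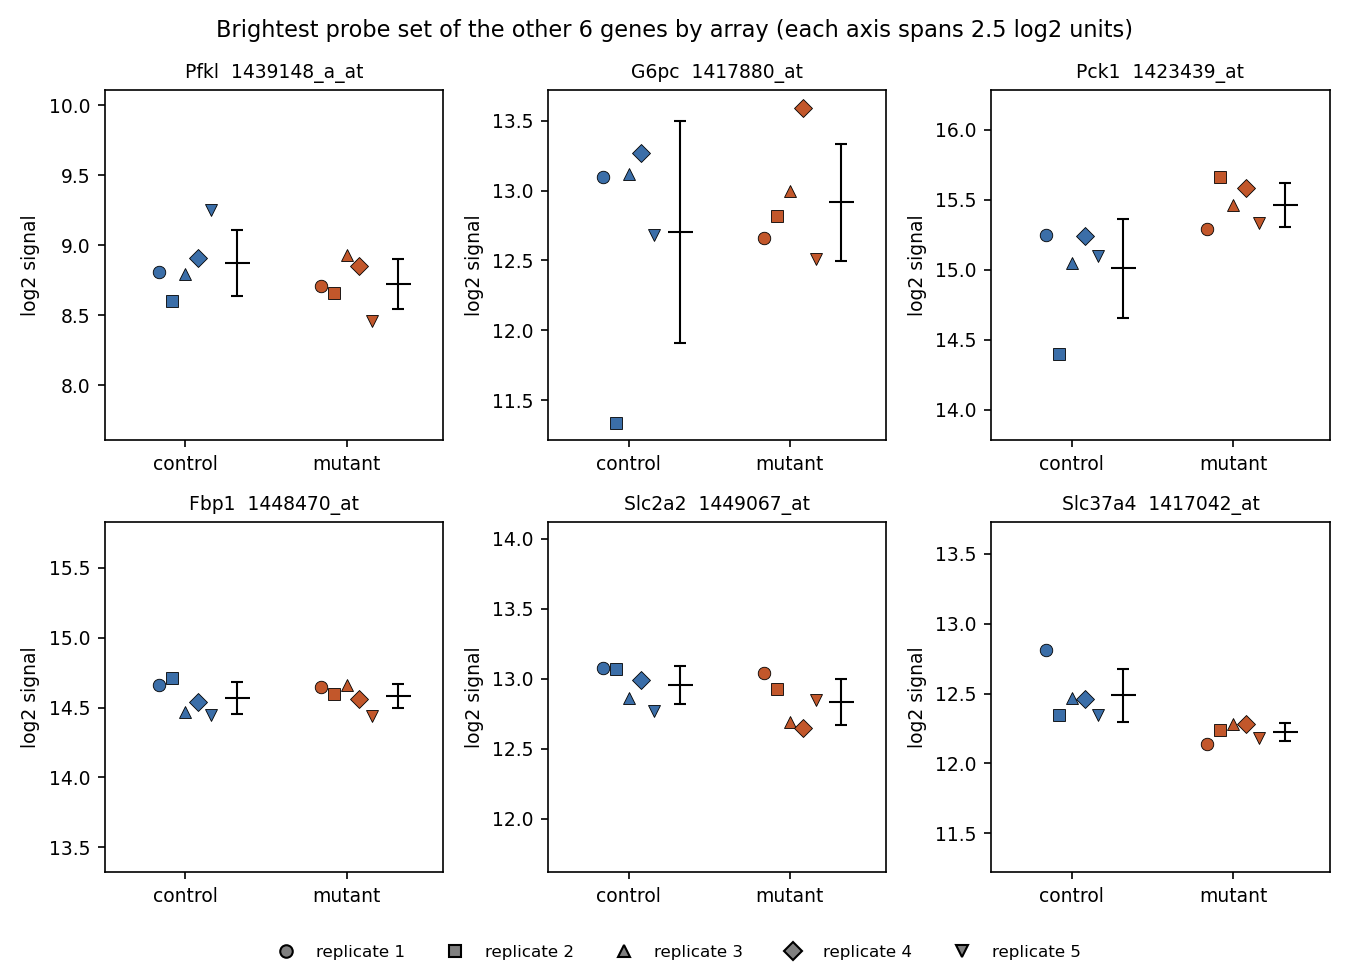
Log2 signal (vertical axes, each 2.5 units tall) of the brightest probe set of Pfkl, G6pc, Pck1, Fbp1, Slc2a2 and Slc37a4 in control (blue) and mutant (orange) livers, with points by replicate and the mean with the SD in black. Groups overlap for Pfkl, G6pc, Fbp1 and Slc2a2, and control replicate 2 lies low for G6pc (11.34) and Pck1 (14.40).

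**Figure D3:**
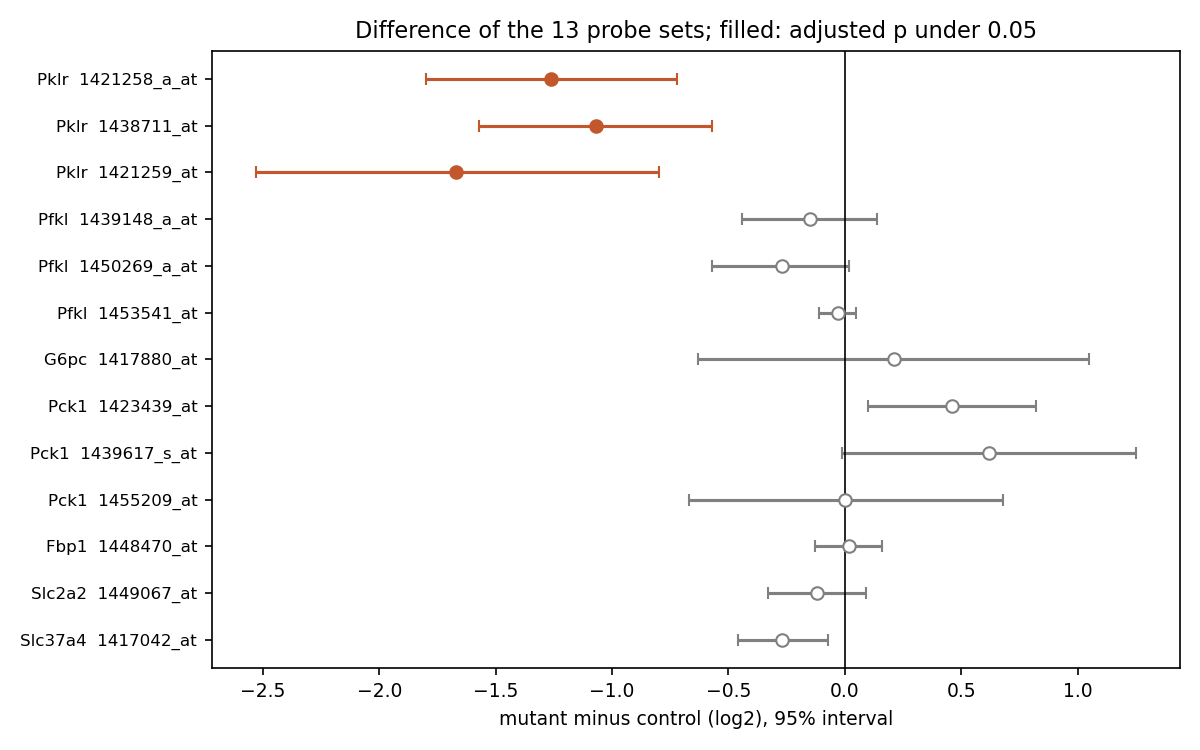
Difference of mutant minus control (horizontal axis, log2) with its 95% interval from limma for the 13 probe sets, filled where the adjusted p is under 0.05. The 3 Pklr probe sets, from -1.67 to -1.07, are the ones filled.

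Array to array, G6pc and Pck1 varied together, with a correlation of deviations from the group means of 0.89 between their brightest probe sets and 0.92 with the second Pck1 probe set, and -0.68 with the dimmest, whose mean is below the 25th percentile of all values. With G6pc and Pck1 in turn, Slc37a4 correlated at 0.52 and 0.56 and Pfkl, a glycolytic gene, at 0.51 and 0.50. Fbp1 was at -0.34 with each, and Slc2a2 at -0.44 and -0.29. Control replicate 2 was the lowest array for G6pc and for both brighter Pck1 probe sets, well below all other arrays. The correlations of 0.89 and 0.92 rest in good part on it, and they were not computed without it. Over the 21 pairs of brightest probe sets, this correlation ran from -0.65 to 0.89 with a median of 0.11, over 10 arrays that all pairs share. For Pklr it was -0.52 with Pfkl, -0.30 with G6pc, -0.30 with Pck1, 0.47 with Fbp1, 0.54 with Slc2a2 and 0.30 with Slc37a4. Among 6071 other genes whose mean reached the gene median of 7.63, the deviations of Pklr were most like those of Gulo (r = 0.94), the gulonolactone oxidase that completes vitamin C synthesis, and Ghitm (r = 0.92), a mitochondrial membrane protein. Gulo and Ghitm differed between groups by 0.21 (adjusted p = 0.565) and -0.12 (adjusted p = 0.119). They were picked as the highest of 6071 correlations over only 10 arrays, where values this high can arise by chance.

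Around these enzymes, 66 further genes of glucose metabolism were measured in 6 lists, each gene by its brightest probe set. Of these, 4 rose (6.06%) and 3 fell (4.55%), against 7.29% and 9.56% of all 12366 genes, so the shares were not above the background. The 7 were Slc2a1, Mdh2, Pdp2 and Pdk4, which rose, and Pfkm, Pdha1 and Khk, which fell. Without mutant replicate 5, 9 rose and 6 fell, which added Pcx, Got2, Gpd1, Pdp1 and Creb1 to those higher and Dld, Pdk2 and Srebf1 to those lower. That array was singled out from these same data as the mutant nearest the controls on component 1. Leaving it out therefore favours calls, here and for the single genes below, and its p-values are no independent support. Counts in the other fits that left out 1 array were 1 to 3 in each direction: leaving out controls 3 or 4 or mutant 2 gave 1 higher, leaving out controls 1 or 2 or mutants 3 or 4 gave 2 higher, and leaving out any of controls 1, 2 and 3 and mutants 1, 2 and 4 gave 1 lower.

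Among the other steps of hepatic glycolysis, 4 enzymes were measured and 0 changed, with 1 at an unadjusted p under 0.05 by limma. Pgk1, the phosphoglycerate kinase, differed by -0.25 (SE 0.08, adjusted p = 0.0810), the lactate dehydrogenase subunit Ldha by -0.15 (adjusted p = 0.266), the phosphoglycerate mutase Pgam1 by -0.10 (adjusted p = 0.303) and the triosephosphate isomerase Tpi1 by -0.09 (adjusted p = 0.621). The median of the list was -0.13.

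Of 15 isoforms that serve mainly other tissues, 1 rose and 1 fell, with a median of 0.01. Pfkm, the muscle subunit of phosphofructokinase, read 7.60, 7.31, 7.75, 7.71 and 7.60 in controls and 6.10, 6.39, 6.79, 6.16 and 7.19 in mutants. The groups did not overlap, mutant replicate 5 lay nearest the controls, and Pfkm fell by 1.07 (SE 0.20, adjusted p = 0.0148), a call kept whichever array was left out. Slc2a1 (GLUT1), the glucose carrier of most cells other than hepatocytes, read 8.55 to 8.98 in controls and 9.16 to 10.30 in mutants. It rose by 0.84 (SE 0.19, adjusted p = 0.0250), by 0.72 and 0.99 on probe sets that did not pass, and the adjusted p was 0.0541 to 0.0583 when control replicate 2, 3 or 4 or mutant replicate 2 was left out. The hexokinase Hk3, at 0.49 (adjusted p = 0.143), and the aldolase Aldoa, at 0.68 (adjusted p = 0.151), did not pass. The Hk3 probe set has a mean below the 25th percentile of all values. Slc2a1 and Hk3 are also expressed in macrophages, of whose 13 markers 5 rose, and the part of these cells in both differences was not tested. Pkm, the pyruvate kinase of most other tissues, differed by 0.30 (SE 0.14, adjusted p = 0.196), and was named after its value had been seen.

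Of 12 other gluconeogenic and substrate-supply genes, 1 rose and 0 fell, with a median of 0.13. Mdh2, the mitochondrial malate dehydrogenase, read 13.27, 13.37, 13.23, 13.40 and 13.49 in controls and 13.93, 14.02, 13.83, 13.87 and 13.43 in mutants. Mutant replicate 5 lay within the controls. Mdh2 rose by 0.46 (SE 0.11, adjusted p = 0.0255), a call that held only without control replicate 2 or 5 or mutant replicate 5 among fits with 1 array left out (up to 0.0617 otherwise), and its dimmer probe set differed by 0.25 (adjusted p = 0.0979). Pcx, pyruvate carboxylase, ran from 12.64 to 13.10 in controls and from 12.90 to 13.52 in mutants, which differ by 0.43 (SE 0.13, adjusted p = 0.0645). It passed without mutant replicate 5, at 0.54 (adjusted p = 0.00618). The alanine transaminase Gpt differed by 0.33 (adjusted p = 0.0732) and the glycerol 3-phosphate dehydrogenase Gpd1 by 0.43 (adjusted p = 0.128), which rose to 0.55 (adjusted p = 0.0289) without mutant replicate 5.

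The pyruvate dehydrogenase complex takes pyruvate on to acetyl-CoA, its kinases switch it off and its phosphatases switch it on. Of 11 genes of this list 2 rose and 1 fell, with a median of -0.18. Pdk4, the kinase induced by fasting, read 7.01, 6.03, 5.84, 6.77 and 6.74 in controls and 8.69, 11.77, 8.45, 10.35 and 7.08 in mutants. The groups came close at mutant replicate 5, while mutant replicate 2 was more than 4 units above every control. Pdk4 rose by 2.79 (SE 0.78, adjusted p = 0.0462), a call that held only without mutant replicate 5 (3.34, adjusted p = 0.00964) and was between 0.0631 and 0.106 in the other 9 fits with 1 array left out. The phosphatase Pdp2 read 7.60 to 8.52 in controls and 8.59 to 9.66 in mutants. It rose by 1.27 (SE 0.22, adjusted p = 0.0113) and passed whichever array was left out. Pdha1, the catalytic subunit of the complex, fell by 0.27 (SE 0.06, adjusted p = 0.0273) and by 0.46 on its other probe set (adjusted p = 0.0250). The first call was lost, at 0.0503 to 0.0660, when control replicate 1, 2 or 3 or mutant replicate 1, 2 or 4 was left out, and after quantile normalization or when arrays were centred on their median or 75th percentile (up to 0.127). Pdp1, the other phosphatase, differed by 0.83 (adjusted p = 0.0865), and by 0.97 (adjusted p = 0.0447) without mutant replicate 5.

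Of 3 genes of fructose and sorbitol entry 1 fell and 0 rose, with a median of -0.52. Khk, the ketohexokinase that phosphorylates fructose, read 12.48, 12.31, 12.01, 12.17 and 11.96 in controls and 11.56, 10.96, 11.79, 11.00 and 11.84 in mutants. The groups did not overlap, and mutant replicates 2 and 4 were lowest, as for Pklr. Khk fell by 0.76 (SE 0.20, adjusted p = 0.0379), a call kept only without mutant replicate 3 or 5 among the 10 fits with 1 array left out (0.0545 to 0.0820 otherwise). Tkfc, the triokinase of the next step, differed by -0.52 (adjusted p = 0.161) and the fructose carrier Slc2a5 by 0.07 (adjusted p = 0.772).

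None of 21 regulators of hepatic glucose genes passed by limma, and the unadjusted p was under 0.05 for 5. The median was 0.10. Srebf1, the insulin-responsive factor of lipid synthesis, read 10.20, 10.69, 10.94, 10.20 and 10.47 in controls and 9.18, 9.09, 9.96, 8.70 and 10.56 in mutants. In 4 mutants it lay below all controls and mutant replicate 5 lay among them, for a difference of -1.0 (SE 0.34, adjusted p = 0.0816), or -1.27 (adjusted p = 0.0105) without that array. Nr0b2 (SHP), a repressor of gluconeogenic transcription, differed by 1.13 (SE 0.39, adjusted p = 0.0865). Sik1, a kinase induced by glucagon signalling, differed by 1.82 (SE 0.64, adjusted p = 0.0946), and by 0.05 on a dim probe set with a mean of 3.62. Creb1, the cAMP-responsive factor, differed by 0.32 (adjusted p = 0.119), which was 0.41 (adjusted p = 0.0168) without mutant replicate 5. Its dimmer probe sets differed by 0.27, -0.06 and 0.05 and did not pass. Mlxipl, the factor of the carbohydrate response element described for Pklr, differed by 0.16 (SE 0.14, 95% interval -0.17 to 0.48, adjusted p = 0.543), and Txnip, one of its targets, by 0.88 (SE 0.37, adjusted p = 0.149). Mlxipl and Txnip were named after their values had been seen.

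**Figure D4:**
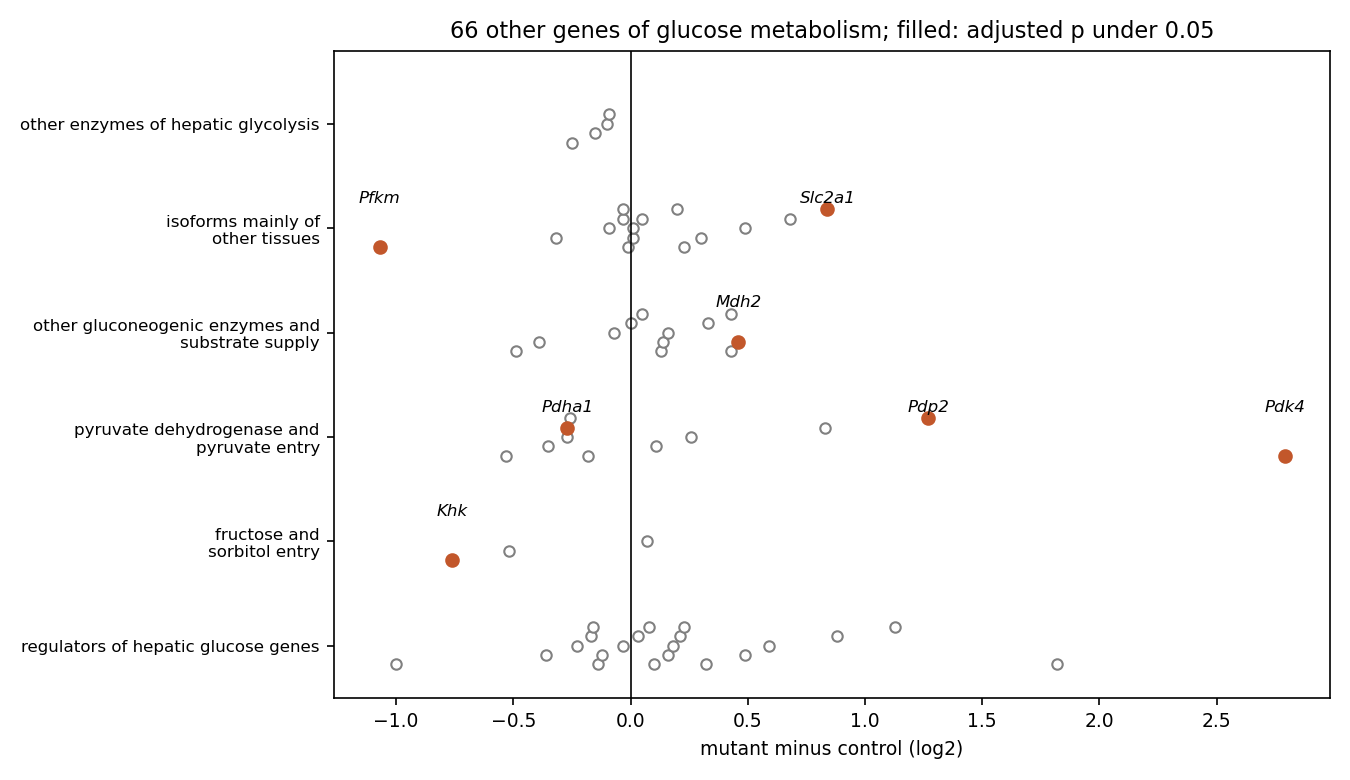
Difference of mutant minus control (horizontal axis, log2) for 66 genes in 6 lists (rows), 1 circle for each gene with small vertical offsets for legibility, filled and named where the adjusted p is under 0.05. The filled genes are Pfkm, Khk and Pdha1 to the left of 0 and Mdh2, Slc2a1, Pdp2 and Pdk4 to the right.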

How the data were processed

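Total RNA from the 10 livers, 100 ng for each, was amplified and labelled with biotin, per the labels' protocols, and the probe set names are those of Affymetrix mouse arrays. The authors deposited 1 table of log2 values for 25995 probe sets, from 0.27 to 16.7. The log base was read from the range. For the background correction, summary and scaling behind them, the sources used here name no method. Precision is limited by the 5 arrays in each group.

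After 37 array controls were left out, 21613 probe sets carried 1 gene symbol in the platform annotation, 638 several and 3707 none. Of the gene identifiers, 61 had no match in RefSeq genes of GRCm38.p6, and 0 symbols changed. Groups came from the sample titles. Mutant minus control was fitted over all 25958 probe sets in limma 3.58.1 (lmFit, eBayes; R 4.3.3), with two-sided p-values adjusted by Benjamini-Hochberg across them, and called at an adjusted p under 0.05. "Rose", "fell" and, for genes and markers, "changed" mean called. In lists, the probe set with the highest mean stood for a gene. The fit was tested on simulated data. Alternatives were other scalings, array weights, a trended robust fit, a filter on dim probe sets, 1 probe set for each gene, the replicate number as a block, and each array left out.

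Named were all probe sets of the 8 genes, from each pathway list up to 4 genes with the smallest p, and the 2 genes most like Pklr. Also named were the genes behind pathway list counts of 5 or fewer, and the pathway genes called without mutant replicate 5. The genes behind the counts of cell type markers were not named. Apart from Dicer1, genes named outside this rule are marked as such in the text. Genes and lists were chosen with earlier results of these data known.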

Additional observations from a re-analysis of the deposited data

Results flagged for a closer look

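In 26 groups of 5 arrays tested, 3 held 1 array far from the rest, where chance gives about 1 in 20. For Pck1 on its brightest probe set, control replicate 2 stood at 14.40, below the other controls at 15.05 to 15.25. For Pck1 on its dimmest, mutant replicate 5 stood at 4.38, above the other mutants at 3.0 to 3.18, with a mean below the 25th percentile of all values. For Slc37a4, control replicate 1 stood at 12.81, above the other controls at 12.35 to 12.47.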

How the results depend on the processing

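The brightest Pklr probe set stayed lower and past the threshold in all 18 alternative fits, with differences of -1.41 to -1.09 and adjusted p of 0.00656 to 0.0402. Deviations of same-numbered arrays correlated at r from -0.179 to 0.151. Different-numbered arrays were not set beside them, so these values cannot decide whether the numbers mark pairs. Medians of arrays 1 to 5 were 6.477, 6.492, 6.611, 6.58 and 6.64 in controls. In mutants they were 6.505, 6.4, 6.548, 6.606 and 6.674. The labels do not call the numbers a pairing, and the main fit has no block. With the replicate number as a block, 1 Pklr probe set stayed called and the others had adjusted p of 0.0525 and 0.0539. The number of the genes' probe sets called lower was thus 1 with the replicate block, and 1 with 1 probe set for each gene, where only 1 Pklr probe set is tested. No alternative called any of them higher. Among the 66 pathway genes, array weights gave 8 higher and 5 lower, and the replicate block gave 2 higher. Fits without 1 array gave 1 to 9 higher and 1 to 6 lower, the most without mutant replicate 5. Signs turned only for differences near 0 that were not called: without 1 array, G6pc ran from -0.13 to 0.36, Fbp1 from -0.01 to 0.05, Slc2a5 from -0.01 to 0.14 and the dim Pck1 probe set from -0.25 to 0.19, and the latter was -0.07 with array weights and -0.00427 after quantile normalization. The cause of these shifts was not tested. Over the single probe sets named, 566 alternative values kept sign and side of the threshold, 48 lost a call, 12 gained one and 13 changed sign.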

Other observations

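For 2 genes of the pyruvate dehydrogenase list, a dimmer probe set passed the test while the brightest did not. Both were named after their values had been seen. Pdk1, a kinase of the complex, differed by -0.35 (adjusted p = 0.487) on the brightest, by -0.48 (adjusted p = 0.547) on the next and by -1.29 (adjusted p = 0.0173) on the dimmest. Dlat, the acetyltransferase of the complex, differed by 0.11 (adjusted p = 0.523) and 0.07 (adjusted p = 0.762) on its brighter probe sets and by 0.83 (adjusted p = 0.0360) on the dimmest.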
